A study of Mus musculus with 10 samples.

Results

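RNA levels of 7 genes of the inhibitory synapse were followed, the GABA-A receptor subunit genes Gabra2, Gabra3, Gabra4, Gabra5, Gabrb1 and Gabrb2 and the scaffold gene Gphn. They were chosen by gene symbol from the 55573 genes listed in the count table, and each symbol was found. The 10 libraries were made from polyA RNA of fluorescent cortical projection neurons sorted from mouse pups on postnatal day 3. The 5 Cdk7_KO libraries came from NexCre/+;Cdk7lox/lox;R26EYFP/+ pups and the 5 Ctrl libraries from NexCre/+;Cdk7+/+;R26EYFP/+ pups. The NexCre driver and the R26EYFP reporter were thus present in both groups, and NexCre, a Cre knocked into Neurod6 and active in newly made excitatory neurons of cortex and hippocampus, drives both the deletion and the reporter. The comparison asks how neuronal RNA depends on Cdk7, which encodes a kinase that activates cell cycle CDKs and, within TFIIH, phosphorylates RNA polymerase II.

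GABA-A receptors are pentameric chloride channels opened by the transmitter GABA. Most are built from alpha, beta and gamma subunits, and the kind of alpha subunit influences where the receptor sits, how long the channel stays open and which drugs bind it. In the newborn cortex many neurons still hold enough chloride inside that GABA can depolarise them, and the products of Gabra2, Gabra3 and Gabra5 are prominent among the alpha subunits of immature receptors. Gephyrin, the product of Gphn, forms a lattice under the postsynaptic membrane that holds glycine and GABA-A receptors at inhibitory synapses. It also catalyses the last steps of molybdenum cofactor synthesis.

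The 4 alpha genes differ in the base composition before their start, and these windows are printed because the balance of these alpha genes is the main measurement here. Each line gives the 250 bases before the first start that RefSeq lists (GRCm38.p6), 5′ to 3′ on the minus strand, which carries all 4 genes. Capitals mark a GC box (GGGCGG or its reverse complement CCGCCC) or a TATA sequence (TATAAA or its reverse complement TTTATA).
Gabra2: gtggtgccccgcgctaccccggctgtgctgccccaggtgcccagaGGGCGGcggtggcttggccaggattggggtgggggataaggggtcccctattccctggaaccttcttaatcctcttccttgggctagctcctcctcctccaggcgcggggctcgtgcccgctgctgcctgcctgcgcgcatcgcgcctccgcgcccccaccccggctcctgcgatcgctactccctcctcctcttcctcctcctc
Gabra5: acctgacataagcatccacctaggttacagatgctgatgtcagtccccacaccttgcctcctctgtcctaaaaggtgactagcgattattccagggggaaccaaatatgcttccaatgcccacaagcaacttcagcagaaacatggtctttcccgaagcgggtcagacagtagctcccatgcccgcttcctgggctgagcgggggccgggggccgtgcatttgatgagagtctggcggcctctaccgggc
Gabra3: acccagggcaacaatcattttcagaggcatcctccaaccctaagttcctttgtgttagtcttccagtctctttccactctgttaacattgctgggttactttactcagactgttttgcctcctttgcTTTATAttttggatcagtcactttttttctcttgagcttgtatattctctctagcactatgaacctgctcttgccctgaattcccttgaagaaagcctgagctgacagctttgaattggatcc
Gabra4: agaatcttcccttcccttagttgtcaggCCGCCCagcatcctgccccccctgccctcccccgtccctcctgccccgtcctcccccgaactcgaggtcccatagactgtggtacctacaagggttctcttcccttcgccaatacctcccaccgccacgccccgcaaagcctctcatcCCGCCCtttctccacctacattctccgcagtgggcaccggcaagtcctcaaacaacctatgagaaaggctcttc

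The Gabra2 window (chr5:71095850-71096099) was 70.0% G and C, with 18 CG dinucleotides and 1 GC box, 205 bases before the start. The Gabra5 window (chr7:57510060-57510309) was 56.4% G and C with 9 CG dinucleotides and held neither marked motif. The Gabra3 window (chrX:72656920-72657169) was 42.4% G and C and held no CG dinucleotide, and its 1 TATA match, on the opposite strand, lay 123 bases before the start. The Gabra4 window (chr5:71658309-71658558) was 61.2% G and C, with 12 CG dinucleotides and 2 GC boxes, the nearer one 74 bases before the start. The median of all 32851 RefSeq windows of this length, from 27025 genes, was 52.4% G and C, so the windows of Gabra2, Gabra4 and Gabra5 lay above it and that of Gabra3 below it. GC boxes occurred in 32.7% of all windows and TATA sequences in 12.4%. The other motifs searched, on both strands, were the core of the cAMP response element (TGACG, in 17.8% of all windows) and the E-box CAGATG bound by NEUROD proteins (in 14.4%). Of the 4 windows, 1 held the E-box, that of Gabra5, and 0 held TGACG. Of the other genes, Gabrb2 (first window) had a TATA sequence 30 bases and a GC box 233 bases before its start, and Gphn had 77.2% G and C, 34 CG dinucleotides and 1 GC box.

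The subunit genes lie in the receptor gene clusters of the mouse genome (GRCm38). Gabra2 (ENSMUSG00000000560, chr5:70957597-71095849), Gabra4 (ENSMUSG00000029211, chr5:71569749-71658308) and Gabrb1 (ENSMUSG00000029212, chr5:71658113-72149037) are neighbours on chromosome 5, the first 2 on the minus strand and Gabrb1 on the plus strand. Gabra5 (ENSMUSG00000055078, chr7:57407672-57510059, minus strand), Gabrb2 (ENSMUSG00000007653, chr11:42419757-42629028, plus strand) and Gabra3 (ENSMUSG00000031343, chrX:72432681-72656848, minus strand) each belong to another cluster, and Gphn (ENSMUSG00000047454, chr12:78226379-78684772, plus strand) stands outside them. Gabra4 and Gabrb1 start head to head and share 46 exonic bases on opposite strands, which is 0.756% of the exonic length of Gabra4. Because the strand setting of the counting is not given, a small part of the Gabra4 and Gabrb1 reads could be assigned to either gene. The same holds for Gphn and the antisense RNA Gm48226, which share 147 exonic bases, or 3.92% of the exonic length of Gphn, with Gm48226 at 4.55 CPM (counts scaled to the library total) on average.

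Total counts lay between 23497621 and 31233466 per library. Cdk7, the targeted gene, averaged 5.16 ± 1.30 CPM in Cdk7_KO and 15.7 ± 4.00 CPM in Ctrl (SD, n = 5 each), with no overlap between the groups (two-sided exact permutation p = 0.0079, the smallest possible with 5 libraries against 5). EdgeR ranked Cdk7 first by p among all genes but did not call it after adjustment (log2 fold change -1.54, SE 0.22, edgeR adjusted p = 0.161), whereas DESeq2 called it. Xist and Ddx3y marked Cdk7_KO replicates 1, 2 and 3 and Ctrl replicates 1 and 3 as male and the other libraries as female, so sex and whatever else the low or high replicate numbers stand for cannot be told apart. Markers of projection neurons summed to between 2146 and 2998 CPM in Cdk7_KO and between 1864 and 2698 CPM in Ctrl, and 10 of 10 had a positive log2 fold change. Markers of other cells were also present, and 0 of the 60 markers was at 0 in every library. Those of astrocytes and radial glia summed to between 326.3 and 1107 CPM in Cdk7_KO and between 1005 and 1834 CPM in Ctrl, with 10 of 10 negative, and those of interneurons to between 35.2 and 374.0 CPM in Cdk7_KO and between 113.2 and 521.1 CPM in Ctrl, with 13 of 13 negative. The interneuron sum averaged 239.8 CPM in Cdk7_KO and 179.0 CPM in Ctrl among male libraries. Among female libraries it averaged 99.6 CPM in Cdk7_KO and 447.6 CPM in Ctrl. Of the 5 Cajal-Retzius markers, 4 were negative and 1 positive. EdgeR's quasi-likelihood test called 0 of these markers, but it also called 0.0% of all genes, so the lack of calls says nothing about the markers. In sorted bulk RNA, fewer cells of a type and less RNA per cell cannot be told apart.

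**Figure D1:**
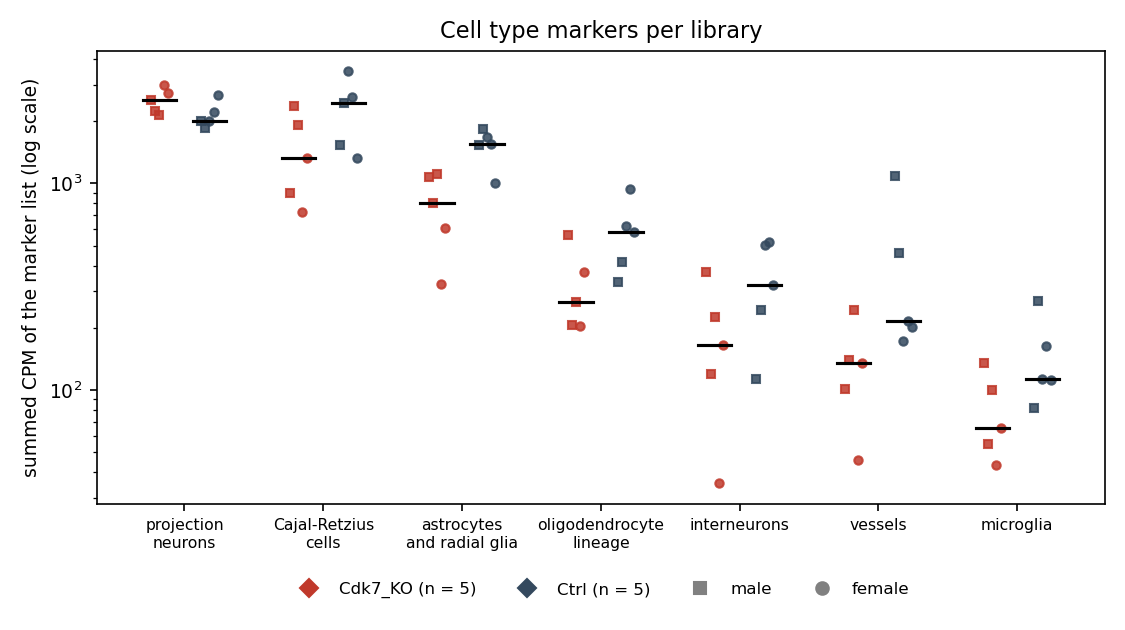
Summed level of each list of cell type markers (CPM, log scale) in each library, by genotype and sex, with a line at the median of the 5 libraries. Projection neuron markers have the higher median in Cdk7_KO, and the other 6 lists have the lower one; the ranges of the genotypes overlap for each list.

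At postnatal day 3 Gabra2 was the highest of the 4 alpha genes, followed by Gabra5 and Gabra3, with Gabra4 far below, in Cdk7_KO and Ctrl neurons alike. Levels were set across genes in TPM, a unit that divides the counts by the exonic length of the gene before scaling each library to the same total. Gabra2, which encodes an alpha subunit found at many synapses including those on the axon initial segment, was at 67.6, 103.8, 90.6, 104.7 and 97.0 TPM in Cdk7_KO replicates 1 to 5, against 68.3, 92.5, 83.2, 97.6 and 95.8 TPM in Ctrl replicates 1 and 3 to 6. Replicate 1 was the lowest library of both genotypes, and the groups overlapped over nearly their whole range.

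Gabra5, whose product forms largely extrasynaptic receptors that carry tonic inhibition, was at 32.1, 72.3, 67.2, 46.4 and 49.6 TPM in Cdk7_KO replicates 1 to 5, against 47.9, 69.1, 45.0, 42.6 and 45.2 TPM in Ctrl replicates 1 and 3 to 6. The lowest and the highest library were both Cdk7_KO, so the Ctrl range fell inside that of Cdk7_KO. Gabra3, X-linked and expressed early in cortical development, was at 24.2, 32.4, 36.3, 22.9 and 25.2 TPM in Cdk7_KO replicates 1 to 5, against 24.5, 29.8, 22.9, 27.0 and 26.3 TPM in Ctrl replicates 1 and 3 to 6. Male Cdk7_KO replicates 2 and 3 were the highest and the other libraries mixed.

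Gabra4, whose product is known from extrasynaptic receptors of the thalamus, striatum and dentate gyrus of older animals, was at 8.27, 7.74, 5.41, 5.47 and 5.78 TPM in Cdk7_KO replicates 1 to 5, against 6.60, 7.55, 9.0, 6.26 and 6.40 TPM in Ctrl replicates 1 and 3 to 6. Cdk7_KO replicates 3, 4 and 5 lay below every Ctrl library, while replicates 1 and 2 lay above all Ctrl libraries but replicate 4.

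Of the 2 beta genes followed, which are not every beta gene, Gabrb2 was the higher in each library. Gabrb2, whose product joins the most common receptor type of the adult brain, was at 31.4, 26.2, 36.7, 30.7 and 43.1 TPM in Cdk7_KO replicates 1 to 5, against 36.5, 33.9, 23.8, 37.9 and 46.8 TPM in Ctrl replicates 1 and 3 to 6. Its lowest and highest libraries were both Ctrl. Gabrb1, which encodes another beta subunit, was at 5.74, 6.90, 8.16, 6.12 and 6.22 TPM in Cdk7_KO replicates 1 to 5, against 6.08, 7.61, 7.07, 7.57 and 6.62 TPM in Ctrl replicates 1 and 3 to 6. The Cdk7_KO libraries held both extremes.

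Gphn was at 52.3, 56.4, 67.7, 45.7 and 57.3 TPM in Cdk7_KO replicates 1 to 5, against 54.1, 55.8, 56.7, 55.2 and 48.0 TPM in Ctrl replicates 1 and 3 to 6. Cdk7_KO replicate 3 was the highest and Cdk7_KO replicate 4 the lowest of all libraries, so the Ctrl range lay within that of Cdk7_KO.

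**Figure D2:**
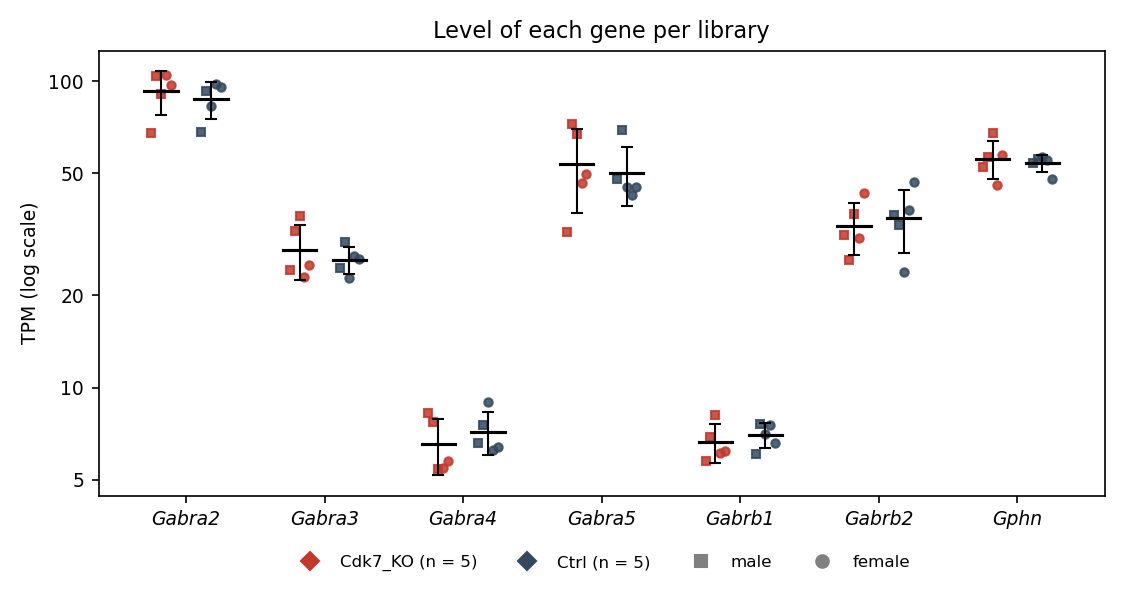
Level of each gene (TPM, log scale) in each library; lines and bars give the mean and SD of the 5 libraries of a genotype, squares are male and circles female libraries. Cdk7_KO and Ctrl points overlap for each of the 7 genes, and Gabra4 and Gabrb1 lie far below the other genes.

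Over the 10 libraries the order of mean levels was Gabra2 (90.1 TPM), Gphn (54.9 TPM), Gabra5 (51.7 TPM), Gabrb2 (34.7 TPM), Gabra3 (27.2 TPM), Gabra4 (6.85 TPM) and Gabrb1 (6.81 TPM). Gabra2 was above Gphn in 10 of 10 libraries, and Gabra3 above Gabra4 in 10 of 10 with no overlap of their ranges. Gphn and Gabra5 did not differ beyond their spread (Gphn higher in 7 of 10 libraries), nor did Gabra4 and Gabrb1 (Gabra4 higher in 4 of 10). Gabra5 was above Gabrb2, and Gabrb2 above Gabra3, in 9 of 10 libraries each. With the longest annotated transcript as the length, Gphn, Gabra5 and Gabrb2 came close together at 44.3, 44.2 and 42.5 TPM, and the order of the 7 means was the same.

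Read as shares of the 4 alpha genes alone, not of every alpha gene, the means of the genotypes lay close together. Gabra2 made up 51.5 ± 5.15% in Cdk7_KO and 51.3 ± 4.67% in Ctrl, and Gabra5 made up 29.0 ± 4.33% in Cdk7_KO and 29.2 ± 4.30% in Ctrl (SD, n = 5 each). Gabra3 held 15.7 ± 2.47% in Cdk7_KO and 15.3 ± 0.870% in Ctrl, and Gabra4 3.77 ± 1.42% in Cdk7_KO and 4.24 ± 0.850% in Ctrl. The differences, Cdk7_KO minus Ctrl, were 0.25 percentage points for Gabra2, 0.37 for Gabra3, -0.47 for Gabra4 and -0.15 for Gabra5, each smaller than the SD of either group. Two-sided exact permutation tests gave p = 0.937 for Gabra2, 0.722 for Gabra3, 0.524 for Gabra4 and 0.929 for Gabra5.

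Library by library, the Gabra2 share was 51.1, 48.0, 45.4, 58.3 and 54.6% in Cdk7_KO replicates 1 to 5, against 46.4, 46.5, 52.0, 56.3 and 55.1% in Ctrl replicates 1 and 3 to 6. The Gabra5 share was 24.3, 33.4, 33.7, 25.8 and 27.9% in Cdk7_KO replicates 1 to 5, against 32.5, 34.7, 28.1, 24.6 and 26.0% in Ctrl replicates 1 and 3 to 6. In both genotypes the male libraries, with 1 exception for Gabra5 (Cdk7_KO replicate 1), had the higher Gabra5 shares, and each male library had a lower Gabra2 share than each female one. The Gabra2 share thus set male libraries (at most 51.1%) narrowly apart from female ones (at least 52.0%), whereas the genotypes overlapped. The Gabra5 share did not, as male Cdk7_KO replicate 1 had the lowest of all libraries. This pattern was seen in the data and was not tested, and sex cannot be told apart from replicate number. As Cdk7_KO holds 3 male libraries and Ctrl 2, the difference was also taken within each sex. For the Gabra2 share, Cdk7_KO minus Ctrl was 1.74 points in male and 2.02 points in female libraries, beside 0.25 over all libraries. For the Gabra5 share it was -3.14 points in male and 0.65 points in female libraries. For the Gabra3 share it was 1.36 points in male and -1.52 points in female libraries. Within a sex the exact permutation p cannot go below 0.2, and it was 0.6 for Gabra2 in either sex. In the female libraries it was 0.2 for the Gabra3 and Gabra4 shares, whose groups did not overlap there. The Gabra4 difference was -1.15 points in female and 0.044 points in male libraries. A p at this limit cannot decide whether these shares differ. For Gabra4, Cdk7_KO replicate 1 stood apart at 6.25%, where Cdk7_KO replicates 2 to 5 lay between 2.71 and 3.58% and the Ctrl libraries between 3.61 and 5.63%. Without Cdk7_KO replicate 1 the Gabra4 difference was -1.09 points, with no overlap between the groups (exact permutation p = 0.0159, adjusted over the 6 values tested 0.0952). Each library was left out in turn, and this case is named because the library was extreme in this same share. Its p is the smallest that the remaining libraries allow. It is also the lowest with any library left out, a choice that the adjustment does not cover. No genotype difference is read from it.

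The Gabrb1 share of the 2 beta genes was 16.7 ± 3.08% in Cdk7_KO and 16.9 ± 4.03% in Ctrl (SD, n = 5 each, exact permutation p = 0.944). This is a share of the 2 genes followed here, not of every beta gene. The log2 ratio of Gphn to the summed alpha genes was -1.69 ± 0.27 in Cdk7_KO and -1.66 ± 0.19 in Ctrl (exact permutation p = 0.833). These 6 values were tested together, and the adjusted p (Benjamini-Hochberg) was 0.944 for each.

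**Figure D3:**
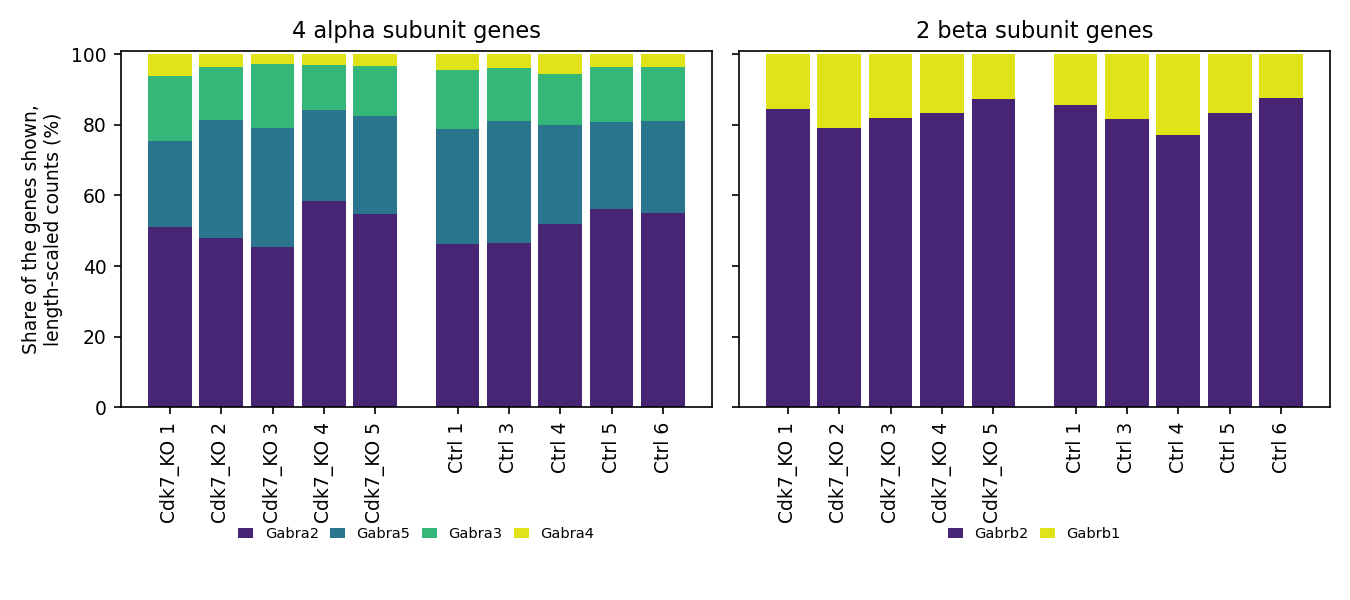
Share of each gene in the summed length-scaled counts of the 4 alpha genes (left) and the 2 beta genes (right), one bar per library, with Cdk7_KO bars on the left of each panel. Gabra2 is the largest of the 4 alpha segments in each of the 10 libraries, and the Gabrb1 segment averages 16.7% in Cdk7_KO and 16.9% in Ctrl.

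None of the 7 genes was found to differ between the genotypes. EdgeR's quasi-likelihood test, with Benjamini-Hochberg adjustment over 15578 genes, called 0 of the 7 at an adjusted p under 0.05, and it called 0.0% of all genes, Cdk7 included among those not called. At an unadjusted p under 0.05 it gave 0 of the 7, where 15.4% of all genes passed. DESeq2 called 0 of the 7 and 3.24% of the genes it gave an adjusted p, and edgeR with sex as a factor called 0 of the 7 and 4.7% of all genes. The CPM ranges of Cdk7_KO and Ctrl overlapped for 7 of 7 genes, where they did not for 3.02% of all genes. Of the log2 fold changes, 5 were positive and 2 negative with a median of 0.14, beside a median of 0.01 over all genes tested. Among all genes tested, 8173 were positive and 7405 negative.

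The intervals give a range for the size of a difference, for each gene on its own and in the fit of genotype alone. They do not cover the shifts of the estimates between fits that are given below. Gphn and Gabrb1 had the narrowest ones, with Gphn at a log2 fold change of 0.14 (SE 0.09, edgeR adjusted p = 0.480, 95% interval of the fold 0.966 to 1.25) and Gabrb1 at 0.01 (SE 0.11, adjusted p = 0.982, fold 0.856 to 1.18). Gabra2 had 0.17 (SE 0.13, edgeR adjusted p = 0.567, fold 0.924 to 1.38) and Gabra3 0.19 (SE 0.13, adjusted p = 0.517, fold 0.938 to 1.39). Gabra4 had -0.04 (SE 0.16, edgeR adjusted p = 0.931, fold 0.761 to 1.24). For Gabra5 the log2 fold change was 0.18 (SE 0.20, edgeR adjusted p = 0.729, fold 0.831 to 1.54) and for Gabrb2 it was -0.01 (SE 0.18, adjusted p = 0.992, fold 0.763 to 1.30). A change of 1.54-fold upwards was thus the largest that any of these intervals held.

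Within the male libraries the log2 fold changes of Gabra2 and Gabra5 were 0.14 and -0.02, whereas the female libraries gave 0.28 and 0.27. The female values had an unadjusted edgeR p of 0.0250 for Gabra2 and 0.0327 for Gabra5 and did not pass the adjustment (0.202 and 0.224). The share of all genes with a p this small in the female libraries is not given here. Without that background, no female effect on Gabra2 or Gabra5 is read from these p-values. Gabrb2 was at -0.14 in male and 0.17 in female libraries, and Gabra4 was at 0.04 in male and -0.20 in female libraries. The difference between the sexes was not called by edgeR for any of the 7 genes (interaction adjusted p between 0.828 and 0.983), where 0.0% of all genes were called and 7.34% had an unadjusted p under 0.05. With an index of other-cell markers as covariate, Gabra2 was at -0.13 in place of 0.17, Gabra3 at 0.39 in place of 0.19 and Gphn at 0.32 in place of 0.14. None of the 7 genes was called in that fit. The index did not overlap between the genotypes and so also takes up genotype; the part of these markers in the levels of the 7 genes was not tested.

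**Figure D4:**
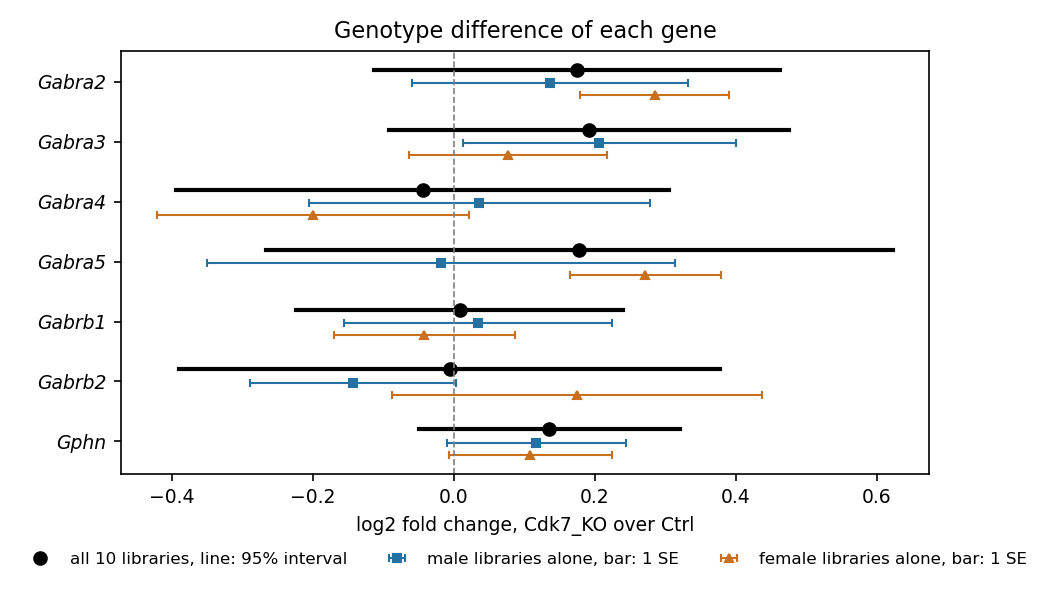
Log2 fold change of each gene, Cdk7_KO over Ctrl, from edgeR; black points use all 10 libraries with 95% intervals, and blue squares and orange triangles use the male or female libraries alone with bars of 1 SE. The 7 black intervals include 0, and the male and female estimates of Gabrb2, Gabra4, Gabra5 and Gabrb1 fall on opposite sides of it.

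The genes varied unequally among libraries of 1 genotype. The SD of the log2 CPM within a genotype was 0.39 for Gabra5, 0.34 for Gabrb2 and 0.25 for Gabra2, above that of 93.9%, 93.8% and 92.1% of genes with a level within 2-fold. Gabra3 had an SD of 0.22 (above 65.0% of such genes) and Gabra4 one of 0.24 (above 42.4%). Gphn and Gabrb1 were steadier, at 0.13 (above 42.6%) and 0.15 (above 31.6%). Gabra5 and Gabrb2, the most variable, had the widest intervals, since the width is computed from the spread of the same counts.

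The patterns over the 10 libraries were compared after scaling each gene to its own mean and SD, as the root mean square difference in SD units. Among the 7 genes, Gabra3 and Gabra5 were most alike at 0.639, high together in male replicates 2 and 3 of Cdk7_KO and replicate 3 of Ctrl. Gabra4 and Gabrb2 were least alike at 1.83. The head-to-head neighbours Gabra4 and Gabrb1 differed by 1.67, and Gabrb1 ranked 12308 among the 13930 genes ordered by nearness to Gabra4. Of all genes, the nearest to Gabra5 were Syp (0.286), which encodes the synaptic vesicle protein synaptophysin, and Brdt (0.312), and to Gabrb2 they were Rhou (0.266) and Ptpro (0.327). The nearest were Dohh (0.372) and Lyrm2 (0.451) for Gabra2, Gm4969 (0.383) and Dner (0.383) for Gabra3, and Galnt6 (0.345) and Upf3a (0.361) for Gabra4. They were Zfpm2 (0.360) and Emc9 (0.429) for Gabrb1 and Tceal7 (0.413) and Atp7b (0.420) for Gphn. These likenesses rest on 10 libraries of unequal depth and both sexes. Each nearest gene was picked from 13930 genes, so a small difference arises by selection for any gene, and no shared function is read from it.

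**Figure D5:**
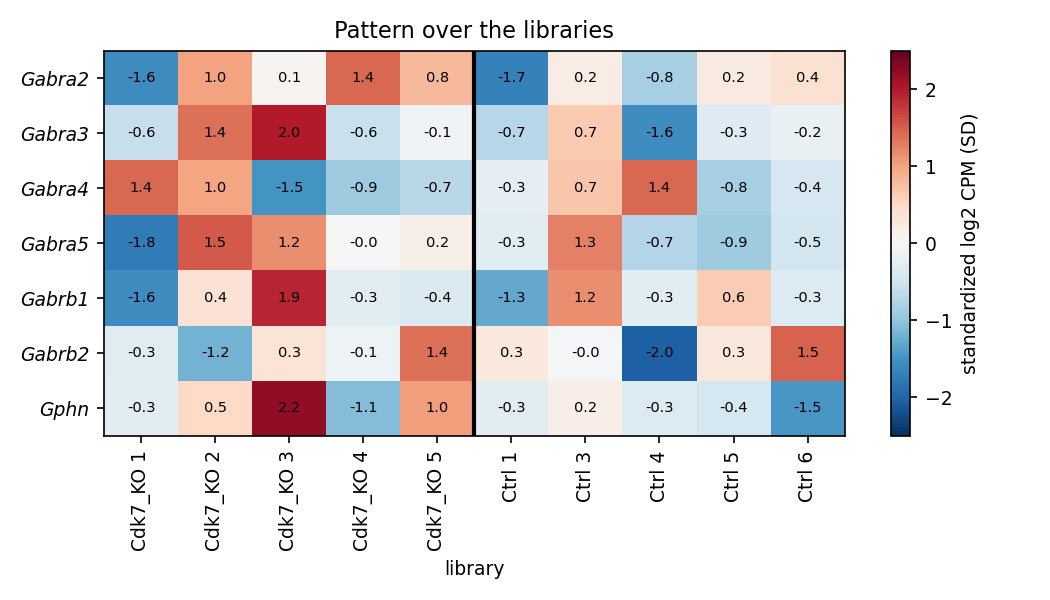
Level of each gene in each library as log2 CPM scaled to the gene's own mean and SD over the 10 libraries (red high, blue low), with Cdk7_KO libraries left of the black line and Ctrl libraries right of it. Gabra2 is lowest in replicate 1 of both genotypes, Gabra3, Gabrb1 and Gphn are highest in Cdk7_KO replicate 3, and no row separates the genotypes.

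Of the other subunit genes, 7 of 13 were tested, 3 with positive and 4 with negative log2 fold changes, and edgeR called 0. Gabrg1, which encodes a gamma subunit known mainly from glia and the amygdala, was at 8.76, 5.24, 8.06, 1.98 and 6.17 CPM in Cdk7_KO replicates 1 to 5, against 8.34, 11.5, 11.5, 11.4 and 8.36 CPM in Ctrl replicates 1 and 3 to 6. Of the 13 subunit genes tested in all, 1 passed an unadjusted edgeR threshold of 0.05, where 15.4% of all genes did. This was Gabrg1, at a log2 fold change of -0.71 (SE 0.30, edgeR's unadjusted p = 0.0349, edgeR adjusted p = 0.284), and only Cdk7_KO replicate 1 reached the Ctrl range. Gabrg1 was lowest in Cdk7_KO replicate 4, which also had the lowest summed markers of each of the 6 lists of other cells, and the part of such cells in the level of Gabrg1 was not tested. Gabrg3, another gamma gene, was at -0.30 (edgeR adjusted p = 0.514) and Gabrd, of extrasynaptic receptors, at -0.18 (adjusted p = 0.891).

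Around gephyrin, 17 genes of its partners and of the inhibitory postsynapse were tested, 10 positive and 7 negative, with a median log2 fold change of 0.03. EdgeR called 0, and at an unadjusted p under 0.05 it gave 2 higher and 2 lower, 4 of 17 where 15.4% of all genes passed. These were the dystroglycan gene Dag1 (-0.19), the exchange factor gene Iqsec3 (0.18), the radixin gene Rdx (-0.23), whose product anchors Gabra5-containing receptors, and Dynll2 (0.14), a dynein light chain that binds gephyrin. Of 17 genes of receptor assembly and trafficking, 14 were positive and 3 negative (median 0.09), where 8173 of all 15578 genes tested were positive. A shift of this list was not tested. In it 1 gene had an unadjusted p under 0.05, Lhfpl4 (0.14), whose product is needed to place receptors at synapses. The kinesin adaptor gene Trak1 (0.17), the palmitoyltransferase gene Zdhhc3 (0.15) and the chaperone gene Ric3 (0.14) came next by p, and edgeR and DESeq2 called 0 genes of either list.

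For gephyrin's other client, 3 of 5 glycine receptor genes were tested, with Glra2, the alpha gene of immature neurons, at 0.19, the gephyrin-binding subunit gene Glrb at 0.10 and Glra3 at -0.02. For its enzymatic role, 5 of the 8 listed genes linked to the molybdenum cofactor were tested, 1 positive and 4 negative. Among them were Mocs1 (-0.21), Marc2 (-0.13) and Mocs2 (-0.07). Of the 5 GABA-B receptor genes, the receptor genes Gabbr1 and Gabbr2 were at 0.09 and 0.08 and the auxiliary subunit genes Kctd16 and Kctd12 at -0.53 and -0.25. Of 8 genes of chloride transport, 3 were positive and 5 negative (median -0.03). The chloride importer gene Slc12a2 was at -0.15, the exporter gene Slc12a5 at 0.10, and the kinase genes Wnk1 and Stk39 at -0.15 and -0.09. EdgeR and DESeq2 called 0 genes of these 4 lists, and Wnk1 alone had an unadjusted edgeR p under 0.05 (0.0302, adjusted 0.269).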

How the data were processed

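The authors deposited a table of raw, whole-number gene counts. The submitters' processing notes name STAR, Salmon and the GRCm38 build; versions, roles and strand setting: not given in the sources used here. A directional library kit was used, per the labels' protocols. Nothing in the labels says whether a library is 1 animal, so p-values measure the spread between these libraries. The table lists 55573 gene IDs, 28204 with a count; 55480 matched GENCODE M21, which gave coordinates and exonic lengths. Columns were matched to samples by name, and 0 were left over. Within a genotype no library was a copy of another (smallest chi-square per gene 11.2 over 20 pairs). Intervals for counting error were not needed, since the 7 genes had at least 213 counts in each library.

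The test was edgeR 4.0.16 under R 4.3.3 (filterByExpr, minimum count 10, TMM, glmQLFTest, genotype alone, Benjamini-Hochberg over 15578 genes, threshold 0.05). Standard errors come from the F statistic. CPM uses library totals and TPM exon-union length. Share values and Cdk7, as log2(CPM + 1), had exact permutation tests over all assignments of 5 and 5 libraries. DESeq2 1.42.0, limma 3.58.1 (voom), other scalings, filters and designs, and leaving out each library, were alternatives.

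Named genes were Cdk7, the 7 members, other Gabr genes with a mean of at least 1 CPM, up to 4 genes per list with the smallest p, and the 2 nearest patterns per member. Some of the other Gabr genes are not reported here. The members and lists were chosen with earlier results of these data known.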

Additional observations from a re-analysis of the deposited data

Results flagged for a closer look

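Of 26 groups of 5 values (7 levels and 6 share values in each genotype), 2 held a library far from the others, and chance flags about 1 in 20 groups. In Cdk7_KO, the Gabra4 share of the alpha genes was 6.25% in replicate 1, and the gap to the next library was 0.756 of the group's range. In Ctrl, the level of Gabra5 was 55.0 CPM in replicate 3, with a gap of 0.803 of the range. The limit for 5 libraries is 0.71.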

How the results depend on the processing

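None of the 7 genes was called under any of 21 alternatives, and the smallest adjusted p in 147 fits was 0.202, for Gabra2 in the female libraries. Over all genes edgeR called 0; 1 was called with no filter, 5 with the replicate block, 732 with sex as a factor, 561 by DESeq2, and 0 to 5 with a library left out (5 without Cdk7_KO replicate 1). The direction was the same in 120 fits and turned in 27. Fold changes that turned were Gabra2 at -0.13, Gabra4 at 0.048 and Gabrb2 at 0.063 with the other-cell index (Gabra3 0.39 and Gphn 0.32, not turned); Gabra4 at 0.036 and Gabra5 at -0.018 in the male libraries; and Gabrb1 at -0.042 and Gabrb2 at 0.17 in the female ones. Gabrb1 was at -0.044 with library totals, -0.012 with a mean of at least 1 CPM, -0.0015 with sex and -0.0076 in voom, and Gabrb2 at 0.017 with sex and 0.0047 in voom. With the replicate block Gabrb1 was at -0.017, Gabrb2 at 0.21, Gabra5 at 0.014 and Gabra4 at -0.15, and the share differences were 2.10 points for Gabra2, -2.04 for Gabra5 and -2.32 for Gabrb1; it changed no call of these 7 genes. Same-numbered libraries deviated together in 3 of 4 pairs (r 0.31, 0.14 and 0.17, against -0.10 for number 1). Differently numbered pairs reached from -0.35 (Cdk7_KO replicate 3 with Ctrl replicate 6) to 0.33 (Cdk7_KO replicate 3 with Ctrl replicate 1). A shared number thus did not stand out. The labels do not say what a number marks, and the libraries were not treated as paired. Of the share values, 72 of 96 kept their direction. In the male libraries the Gabra4 share differed by 0.044 points, the Gabrb1 share by 1.86 and the Gphn ratio by 0.027, and in the female ones the Gabra4 share by -1.15, the Gabrb1 share by -2.70, the Gabra3 share by -1.52 and the Gabra5 share by 0.65; the smallest p within 1 sex is 0.2. With a library left out, log2 fold changes lay from 0.09 to 0.27 (Gabra2), 0.10 to 0.25 (Gabra3), -0.14 to 0.034 (Gabra4), 0.05 to 0.34 (Gabra5), -0.065 to 0.059 (Gabrb1), -0.13 to 0.12 (Gabrb2) and 0.07 to 0.17 (Gphn). Share differences lay from -1.46 to 1.76 (Gabra2), -0.29 to 1.10 (Gabra3), -1.09 to -0.12 (Gabra4), -1.31 to 1.23 (Gabra5) and -1.29 to 1.33 points (Gabrb1), and the Gphn ratio from -0.12 to 0.040. The causes were not tested. Without length scaling the shares in Cdk7_KO and Ctrl were 69.6% and 69.3% for Gabra2, 15.4% and 15.5% for Gabra5, 11.0% and 10.7% for Gabra3, and 30.3% and 30.5% for Gabrb1.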
